A study of Mus musculus with 4 samples.

Results

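Surface proteolysis in embryonic tongue epithelium was followed through 10 genes. They are 6 tissue kallikreins (Klk7, Klk8, Klk10, Klk11, Klk13 and Klk14), 3 protease inhibitors (Spink5, Wfdc5 and Cst6), and Endou. All 10 were found by gene symbol among the 24453 genes of the count and FPKM files. They were chosen by symbol with their log2 fold changes between these same libraries already known, so their own differences between genotypes are given as a description and support nothing by themselves.

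The 2 libraries labelled Ring1a/b 2KO came from embryos whose genotype is given as Ring1a-/- Ring1b fl/fl with a Cre recombinase under the K14 (Krt14) promoter, which is active in keratinocytes of the basal layer. The 2 control libraries carry no allele in their labels beyond the word control. All were made at embryonic day 16 from tongue without the circumvallate papilla, from cells sorted for EpCAM, an adhesion molecule of epithelial surfaces. The protocol calls the sorted cells basal, although EpCAM does not mark basal cells alone, and markers of upper layers were present in all 4 libraries. Ring1a (Ring1) and Ring1b (Rnf2) are catalytic subunits of Polycomb repressive complex 1, a repressor of developmental genes. The design addresses the role of this complex in lingual epithelium.

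Kallikreins are secreted serine proteases made as inactive precursors. In stratified epithelia they activate each other and cut the desmosomal proteins that hold surface cells together, so that cells can be shed. Inhibitors made in the same upper layers hold them back. The best known is Spink5 (LEKTI), a chain of Kazal-type domains that blocks several kallikreins and whose loss in humans causes Netherton syndrome. Wfdc5 belongs to the whey acidic protein family, many members of which inhibit serine proteases. Cst6 (cystatin M/E) inhibits cysteine proteases, cathepsin L and legumain among them. Endou is a uridylate-specific endoribonuclease, so it belongs to neither class and is described apart from the protease and inhibitor sums.

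Libraries held 16256569 to 20624055 counts. Rn45s, the ribosomal RNA precursor, made up 22.9% and 20.2% of counts under the 2KO label and 16.7% and 15.3% in control. Ring1 stood at 16.8 and 15.0 CPM (counts scaled to library size) in the 2KO-labelled libraries and at 9.02 and 8.57 CPM in control, and Rnf2 at 62.9 and 62.4 CPM, against 34.0 and 51.3 CPM (edgeR adjusted p = 0.101 and 0.126). Neither targeted gene was thus lower under the 2KO label, and counts over a whole gene cannot show the loss of part of it. The directions given here thus follow the labels. Epcam was at 216 and 245 CPM in 2KO-labelled libraries and 221 and 189 CPM in control. Summed over 8 muscle markers, control replicate 2 stood apart, at 391 CPM beside 60.5 CPM in control replicate 1 and 64.4 and 78.8 CPM in 2KO-labelled libraries. Whether the replicates are different embryos is not stated in the labels. The p-values reflect the spread between these libraries alone, which may be technical.

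Of the 10 members 8 were called lower in the 2KO-labelled libraries, and Klk7 and Klk8 were not called. The call is an adjusted p under 0.05 in edgeR's quasi-likelihood test with Benjamini-Hochberg adjustment over 15336 genes. Of all genes tested 4.92% were called lower and 7.0% higher, 11.9% in either direction. The 8 called members are 4 of the 6 kallikreins, the 3 inhibitors and Endou, and 0 members were called higher, also with DESeq2, limma-voom and the other settings tried. All 10 fitted log2 fold changes were negative. For the same 8 genes both 2KO-labelled libraries lay below both control libraries, as they did for 28.7% of all genes tested. Klk14 and Wfdc5 reached the filter on low counts through their control libraries alone, so a difference in them was a condition of being tested. The count of members called lower was 8 without 2KO-labelled replicate 1 and 7 without any other library, control replicate 2 with its muscle markers included. In bulk sorted cells, fewer cells of a type and less RNA per cell cannot be told apart.

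**Figure D1:**
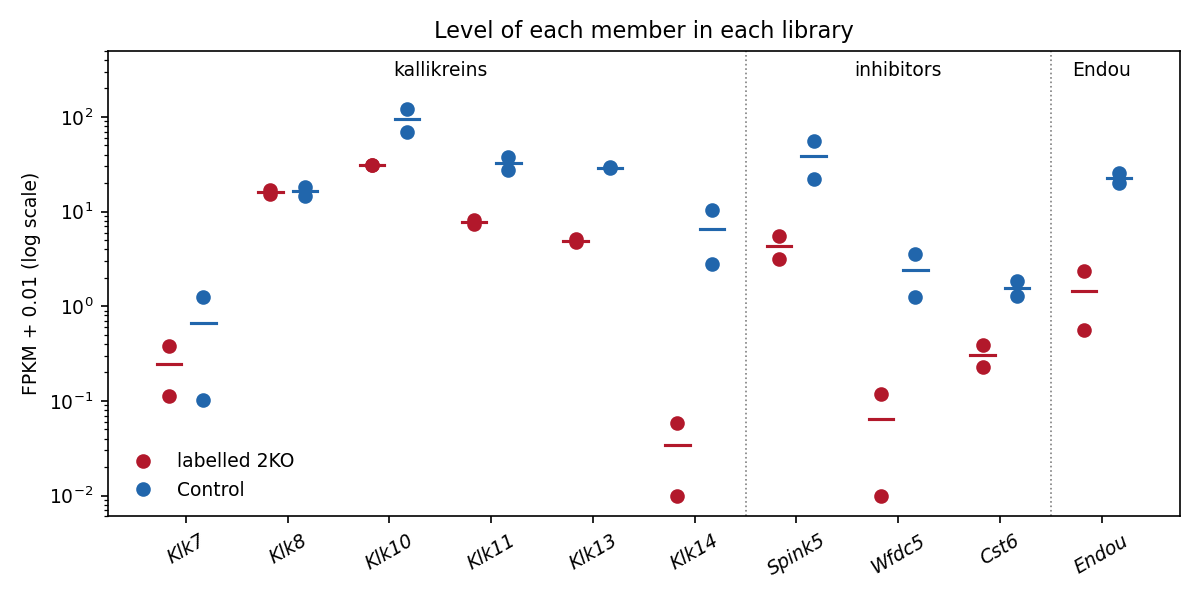
FPKM (read fragments scaled to transcript length and library size, the authors' values) of each member in each library, plotted as FPKM + 0.01 on a log scale. Points are libraries and short lines are group means, with the libraries labelled 2KO on the left of each pair. Klk8 points lie side by side at 14.6 to 18.1 FPKM, while the groups stand apart for Klk10, Klk11, Klk13, Klk14, the 3 inhibitors and Endou.

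Klk10 was the most abundant member per transcript length in either genotype. It is a kallikrein of upper epithelial layers. It measured 31.2 and 30.8 FPKM in the 2KO-labelled libraries, against 119.9 and 69.4 FPKM in control. The 2KO-labelled values were nearly equal and the control values differed 1.72-fold in CPM, without overlap between groups. The fitted log2 fold change was -1.52 (standard error 0.246), a level 2.87-fold higher in control.

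Klk11 and Klk13, both trypsin-like kallikreins, fell with little spread in either group. Klk11 was at 8.13 and 7.36 FPKM in the 2KO-labelled libraries and at 37.9 and 27.5 FPKM in control (log2 fold change -2.02, standard error 0.240). Klk13 was at 4.77 and 5.08 FPKM in the 2KO-labelled libraries and at 29.4 and 28.9 FPKM in control (log2 fold change -2.25, standard error 0.272). Klk13 was the steadiest of the members that fell: with each library left out in turn its log2 fold change stayed between -2.35 and -2.17.

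Klk14, a trypsin-like kallikrein that activates other kallikreins, was close to the detection limit in the 2KO-labelled libraries. It was listed at 0 and 0.0486 FPKM there, from 0 and 5 counts, and at 10.3 and 2.77 FPKM in control, from 214 and 45 counts. The 0 counts of 2KO-labelled replicate 1 allow a level of up to 0.170 CPM, counting error alone. The control libraries differed 3.97-fold in CPM, and the groups still did not overlap. The fitted log2 fold change was -5.60 (standard error 1.15). It was -4.29 without control replicate 1, where the call ended, and -9.92 without 2KO-labelled replicate 2, where a group at 0 counts leaves the fitted size to the prior count. The call also ended with limma-voom.

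Klk8 (neuropsin), a trypsin-like kallikrein also known from the hippocampus, did not pass the test. It was at 15.2 and 16.9 FPKM in the 2KO-labelled libraries and at 18.1 and 14.6 FPKM in control. The 2KO-labelled values lay between the control values. The log2 fold change was -0.06 (standard error 0.324), and between -0.34 and 0.33 with a library left out. A difference of that size is within the spread between replicates, which does not show that the level was the same.

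Klk7, the chymotrypsin-like kallikrein that cuts corneodesmosin in skin, was near the lower limit of these data and overlapped between groups. It had 5 and 29 counts (0.104 and 0.372 FPKM) in the 2KO-labelled libraries and 70 and 6 counts (1.23 and 0.0932 FPKM) in control. A single library, control replicate 1, held most of its reads. The log2 fold change was -1.13 (standard error 1.20) with all libraries and 1.29 without that one, so no direction can be given.

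Spink5, the main inhibitor by level, fell in both 2KO-labelled libraries. It was at 5.54 and 3.14 FPKM in the 2KO-labelled libraries and at 55.1 and 22.0 FPKM in control. The libraries differed 1.74-fold in CPM under the 2KO label and 2.39-fold in control, and the groups did not overlap. The log2 fold change was -3.38 (standard error 0.383), a level 10.4-fold higher in control, and stayed between -3.87 and -2.60 with a library left out.

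Wfdc5 and Cst6, the less abundant inhibitors, were lower as well, with fewer reads behind them. Wfdc5 had 6 and 0 counts (0.108 and 0 FPKM) in the 2KO-labelled libraries and 189 and 70 counts (3.59 and 1.24 FPKM) in control, a log2 fold change of -5.30 (standard error 1.10). Cst6 had 25 and 17 counts (0.375 and 0.218 FPKM) in the 2KO-labelled libraries and 100 and 119 counts (1.29 and 1.84 FPKM) in control, a log2 fold change of -2.39 (standard error 0.665). Neither gene overlapped between groups. The Cst6 call was near the threshold and ended without control replicate 2 or 2KO-labelled replicate 2, with limma-voom and on FPKM values. The Wfdc5 call ended on FPKM values.

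Endou was at 2.33 and 0.556 FPKM in the 2KO-labelled libraries and at 25.8 and 19.9 FPKM in control. Its 2KO-labelled libraries differed 3.66-fold in CPM, and both were far below control. The log2 fold change was -4.15 (standard error 0.461), and -5.35 to -3.49 with a library left out.

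**Figure D2:**
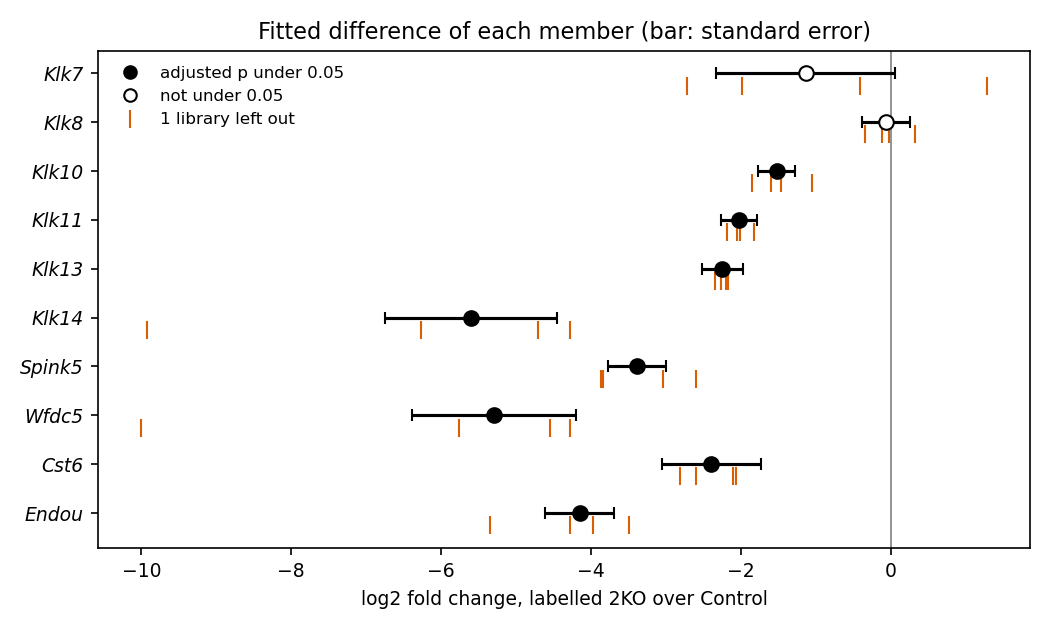
Fitted log2 fold change of each member, libraries labelled 2KO over control, with its standard error as the bar; filled circles passed the threshold of 0.05. Orange ticks are fits with 1 of the 4 libraries left out: they stay close together for Klk11 and Klk13, spread widely for Klk14 and Wfdc5, and fall on either side of 0 for Klk7 and Klk8.

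The order of the members by level shifted with these differences. In the 2KO-labelled libraries Klk10 came first at 31.0 ± 0.312 FPKM (SD, n = 2 in each group here and below), then Klk8 at 16.1 ± 1.25 FPKM, Klk11, Klk13, Spink5 and Endou. In control Klk10 led at 94.7 ± 35.7 FPKM, followed by Spink5 at 38.6 ± 23.5 FPKM, Klk11 at 32.7 ± 7.36 FPKM, Klk13 at 29.1 ± 0.368 FPKM, Endou at 22.9 ± 4.19 FPKM and Klk8 at 16.3 ± 2.46 FPKM. Klk8 thus took rank 2 in the 2KO-labelled libraries and rank 6 in control with nearly the same level, and Spink5 took rank 5 and rank 2. Neighbours whose libraries overlapped were Klk13 and Spink5 and each neighbouring pair among the last 4 (Cst6, Klk7, Wfdc5 and Klk14) in the 2KO-labelled group. In control they were Spink5 with Klk11, Klk11 with Klk13, Klk14 with Wfdc5 and Wfdc5 with Cst6.

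Summed levels of the 6 kallikreins and of the 3 inhibitors were lower under the 2KO label, and the ratio of these 2 sums was higher. The 6 kallikreins together came to 59.4 and 60.6 FPKM in the 2KO-labelled libraries and 217 and 143 FPKM in control. The 3 inhibitors together came to 6.02 and 3.36 FPKM in the 2KO-labelled libraries and 60.0 and 25 FPKM in control. The ratio of the kallikrein sum to the inhibitor sum was therefore 9.86 and 18.1 in the 2KO-labelled libraries and 3.61 and 5.72 in control, with no overlap. These are RNA levels of genes chosen with the results known, and an exact permutation test of 2 against 2 libraries cannot go below p = 0.333, so the ratio carries no test. It also leaves out the other inhibitors. The Kazal, Kunitz and whey acidic protein list summed to 312 and 281 FPKM under the 2KO label and 253 and 259 in control. These sums exceed those of the 3 inhibitors and are higher under the 2KO label. Serpin sums were lower there, at 251 and 254 against 276 and 280 FPKM, and cystatin and stefin sums overlapped. Most of each serpin sum was Serpinh1 and Serpinb5. Serpinh1 was at 77.0 and 103 FPKM under the 2KO label and 72.4 and 97.0 in control. Serpinb5 was at 69.2 and 54.1 FPKM under the 2KO label and 78.8 and 74.2 in control. Serpins were listed by family, and whether each inhibits a protease was not tested. The ratio is thus one of the 3 chosen inhibitors and does not describe inhibitors as a class.

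The ratio rests on few genes. Klk10 made up 52.6% and 50.8% of the kallikrein FPKM in the 2KO-labelled libraries and 55.3% and 48.5% in control. Klk8, which overlapped between groups, made up 25.6% and 28.0% in the 2KO-labelled libraries and 8.34% and 10.2% in control. Spink5 made up 92.0% and 93.5% of the inhibitor FPKM in the 2KO-labelled libraries and 91.9% and 87.7% in control. Without Spink5 the ratio was 123 and 278 in the 2KO-labelled libraries and 44.5 and 46.5 in control, again without overlap. The 2KO-labelled divisor was then Wfdc5 at 0.108 and 0 FPKM and Cst6 at 0.375 and 0.218 FPKM, near the lower limit of these data. Most of it was Cst6, which inhibits cysteine proteases, so the size of that ratio is poorly set. With CPM sums, which weigh long transcripts such as Spink5 more, the ratio over all 3 inhibitors was 2.22 and 4.29 against 0.735 and 1.13. The median log2 fold change came to -1.77 across the 6 kallikreins and -3.38 across the 3 inhibitors, beside 0.0065 over all genes tested. On filtered log2(FPKM + 1), which shrinks genes of low FPKM, the medians were -1.93 for the kallikreins and -1.61 for the inhibitors, so their order turned.

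**Figure D3:**
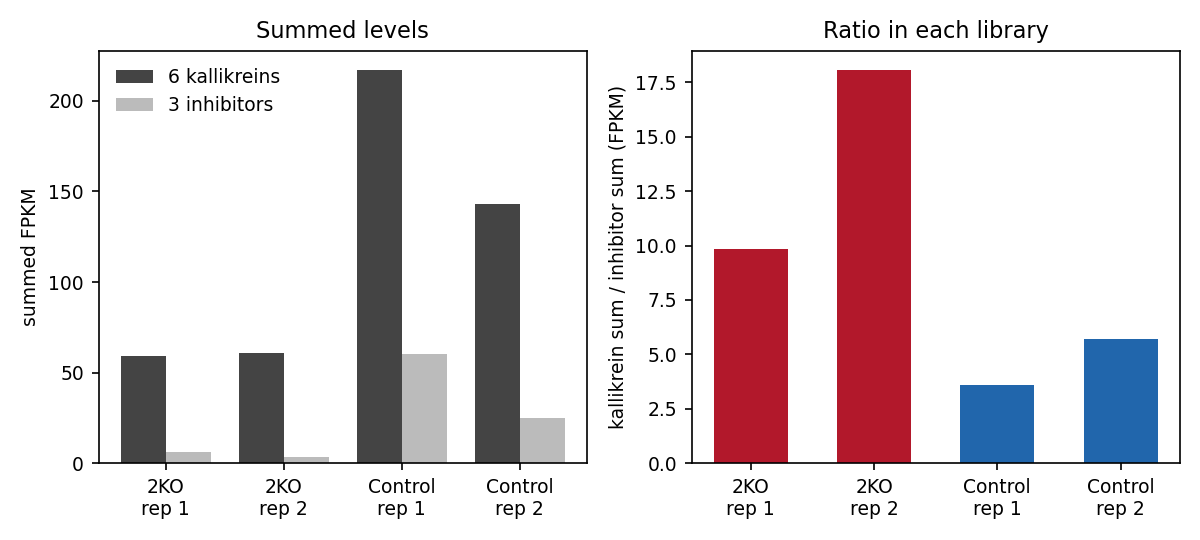
Left, summed FPKM of the 6 kallikreins (dark) and the 3 inhibitors (light) in each library; right, the ratio of the 2 sums. Kallikrein sums were 59.4 and 60.6 FPKM in the libraries labelled 2KO, and the ratio there, 9.86 and 18.1, lies above the control values of 3.61 and 5.72.

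All 6 kallikrein members lie on chromosome 7 of mm10, in a locus of 26 kallikrein genes between 43690418 and 44229618, and are transcribed in the same direction. In order from the Klk14 end they are Klk14 (43690418 to 43695536), Klk13 (43712567 to 43727534), Klk11 (43774604 to 43779263), Klk10 (43781035 to 43785410), Klk8 (43797577 to 43803826) and Klk7 (43811294 to 43816359). Klk12 lies between Klk13 and Klk11, and Klk9 between Klk10 and Klk8. Of the locus 8 kallikreins passed the filter on low counts, and they are the neighbours from Klk14 to Klk7, within 125.9 kb.

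Klk12 and Klk9, the tested kallikreins that are no members, had lower values under the 2KO label without passing the test. Klk12 was at 1.53 and 1.19 CPM in 2KO-labelled libraries and 6.23 and 3.64 CPM in control (log2 fold change -1.86, edgeR adjusted p = 0.102). Klk9 was at 2.21 and 0.989 CPM in 2KO-labelled libraries and 3.48 and 3.11 CPM in control (log2 fold change -1.04, edgeR adjusted p = 0.420). In CPM neither overlapped between groups, and 28.7% of all genes tested likewise had both 2KO-labelled libraries below both control libraries. In FPKM Klk9 did overlap, at 1.24532 in 2KO-labelled replicate 1 and 1.2452 in control replicate 2. Klk5, the trypsin-like kallikrein placed at the head of the skin cascade and a main target of Spink5, is picked out here with its values known: it had 0 counts in both 2KO-labelled libraries and 8 and 11 in control. Against a limit of 3 counts over the 2KO-labelled group, the control level as counted was 6.4-fold higher. That figure leaves out the counting error of the control reads, and Klk5 rests on too few reads to be tested. Of 14 genes of the Klk1 and Klk1b group at the other end of the locus, which are genes of salivary gland and kidney, 4 had any count.

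**Figure D4:**
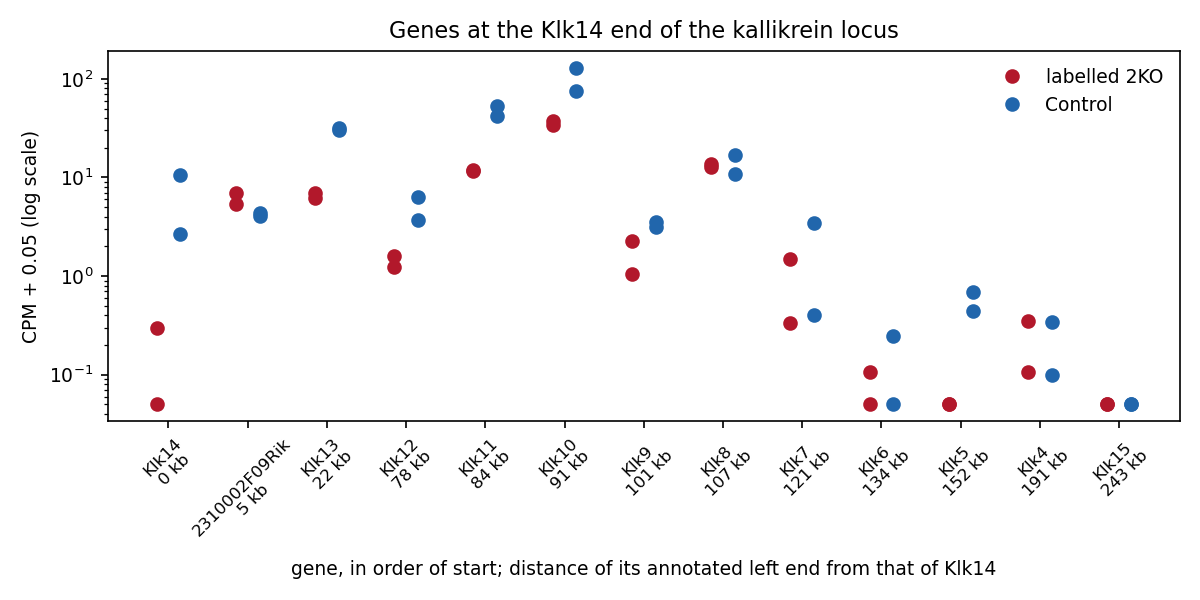
CPM + 0.05, on a log scale, of the kallikreins from Klk14 to Klk15 and of the antisense transcript 2310002F09Rik, in order along the chromosome with the distance of the left end from that of Klk14 in kb. Libraries labelled 2KO stand left of control. The libraries labelled 2KO lie below control for Klk14, Klk13, Klk12, Klk11, Klk10, Klk9 and the barely detected Klk5, lie above it for 2310002F09Rik, and overlap for Klk8, Klk7, Klk6 and Klk4; Klk15 had no count.

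A long noncoding transcript of the opposite strand, 2310002F09Rik (43695209 to 43797958), runs from the end of Klk14 to the start of Klk8. Its exons overlap 287 bases of Klk14 exons and 382 bases of Klk8 exons. Its own level was 5.33 and 6.88 CPM in 2KO-labelled libraries and 4.02 and 4.28 CPM in control (edgeR adjusted p = 0.521). The strand setting of the counting is not given in the sources used here, so reads in the shared stretches cannot be assigned to either strand, and Klk8 and Klk14 values are uncertain to that extent. The gene next to Klk14 outside the locus, Ctu1, was at 2.21 and 6.04 CPM in 2KO-labelled libraries and 2.74 and 3.99 CPM in control (edgeR adjusted p = 0.821).

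The start regions of the kallikreins differ in base composition, and Klk8 stands apart among the 6 kallikrein members. RefSeq promoter windows (GRCm38.p6, 300 bases, the last 50 from the start onward) were found for the 6 kallikreins and for none of the other 4 members. The Klk8 window holds 23 CpG dinucleotides, and 80.0% of the 32851 windows of all genes hold as many or fewer. The first windows of the other 5 kallikreins hold 0 to 4, against a median of 7 over all windows. CpG-dense start regions are the kind at which Polycomb complexes are commonly found, which is background here, since binding was not measured. The windows of Klk8, Klk10 and Klk14 are printed as the most abundant member that was not called, the most abundant member that fell and the one with the lowest fitted fold change. Each is on the forward strand, at chr7:43797327-43797626, chr7:43780804-43781103 and chr7:43690168-43690467, with CpG dinucleotides in capitals.
Klk8: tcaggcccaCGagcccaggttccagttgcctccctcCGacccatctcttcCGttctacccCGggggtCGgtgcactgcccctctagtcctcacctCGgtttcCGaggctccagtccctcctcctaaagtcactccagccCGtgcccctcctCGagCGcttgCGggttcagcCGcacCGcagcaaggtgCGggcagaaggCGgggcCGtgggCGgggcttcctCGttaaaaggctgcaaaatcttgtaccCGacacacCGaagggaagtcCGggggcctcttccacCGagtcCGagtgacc
Klk10: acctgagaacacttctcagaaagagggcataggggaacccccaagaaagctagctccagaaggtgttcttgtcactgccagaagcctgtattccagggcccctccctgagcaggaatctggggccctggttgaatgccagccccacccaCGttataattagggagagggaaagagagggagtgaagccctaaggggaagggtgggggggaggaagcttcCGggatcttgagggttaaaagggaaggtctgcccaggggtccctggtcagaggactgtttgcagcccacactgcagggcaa
Klk14: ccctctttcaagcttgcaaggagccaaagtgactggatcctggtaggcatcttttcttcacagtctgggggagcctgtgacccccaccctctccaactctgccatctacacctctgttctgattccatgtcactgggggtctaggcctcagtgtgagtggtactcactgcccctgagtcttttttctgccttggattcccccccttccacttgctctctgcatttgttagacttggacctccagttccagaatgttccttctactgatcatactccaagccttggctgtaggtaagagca

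Klk7, which was not called either, has 4 CpG dinucleotides in its window. The first window of Klk11, which was called lower, has as many. A search of both strands covered 4 short motifs. The KLF-type motif CCACCC occurred in the first windows of 5 of the 6 kallikreins, all but Klk8, and in 31.5% of all windows. A second window of Klk11 held no match. The AP-1 motif TGANTCA, the grainyhead motif AACNNGTT and the TATA motif TATAAA occurred in 0 of the 6 and in 7.8%, 4.2% and 13.6% of all windows. With matches to the KLF-type motif alone, no matches of different motifs overlap. A match or its lack describes these letters in these windows only.

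The inhibitors and Endou lie elsewhere in the genome. Spink5 is on chromosome 18 (43963235 to 44022501), Wfdc5 on chromosome 2 (164176327 to 164182742), Cst6 on chromosome 19 (5344705 to 5349574) and Endou on chromosome 15 (97711015 to 97731339). Exons of Wfdc5 share 81 bases with an antisense transcript, A730032A03Rik. Wfdc12, another whey acidic protein gene beside Wfdc5 (chromosome 2, 164189231 to 164190608), was called lower. It reached the filter on low counts through its control libraries alone, as Wfdc5 did. It had 0.170 and 0.346 CPM in 2KO-labelled libraries and 4.90 and 1.53 CPM in control (log2 fold change -3.60, edgeR adjusted p = 0.0477). That call ended without control replicate 1, without either 2KO-labelled library, with upper-quartile scaling and with limma-voom. Wfdc12 exons share 125 bases with the same antisense transcript.

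Proteases of epithelia outside the members came from a list chosen for function with earlier results of these data known, so its shares are a description. Of 31 tested outside the members, the 2 kallikreins above included, 6 fell, 1 rose and 24 did not pass (19.4% lower and 3.23% higher, beside 4.92% and 7.0% of all genes tested), with a median log2 fold change of -0.33. Those that fell include membrane-bound serine proteases of the airway trypsin-like family. Tmprss11a was at 37.3 and 21.2 CPM in 2KO-labelled libraries and 129.9 and 58.3 CPM in control (log2 fold change -1.69, edgeR adjusted p = 0.0121). Tmprss11d was at 20.4 and 18.4 CPM in 2KO-labelled libraries and 53.4 and 30.7 CPM in control (log2 fold change -1.12, edgeR adjusted p = 0.0261). Tmprss11e, named with its values known, was at 0.907 and 0.148 CPM in 2KO-labelled libraries and 9.85 and 2.17 CPM in control (log2 fold change -3.52, edgeR adjusted p = 0.0428), and only its control libraries both reached the filter on low counts. Tmprss11f and Tmprss11g, also tested, were not called (log2 fold change -1.70 and -0.94, edgeR adjusted p = 0.259 and 0.131). The Tmprss11a and Tmprss11d calls ended on FPKM values. Without control replicate 1, 3 of the proteases fell and 5 rose, and Tmprss11d lost its call.

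Intracellular proteases were among those that fell. Asprv1, an aspartic protease that processes profilaggrin, was at 41.1 and 19.9 CPM in 2KO-labelled libraries and 76.7 and 58.6 CPM in control (log2 fold change -1.15, edgeR adjusted p = 0.0320). Blmh, an aminopeptidase of the last steps of filaggrin breakdown, was at 91.9 and 89.5 CPM, against 160.9 and 125.7 CPM in control (log2 fold change -0.66, edgeR adjusted p = 0.0323). Ctsd, a lysosomal aspartic protease, was at 158 and 176 CPM in 2KO-labelled libraries and 276 and 264 CPM in control (log2 fold change -0.69, edgeR adjusted p = 0.0135). Casp14, Capn1 and Furin, also linked to filaggrin processing and named with their values known, were not called (edgeR adjusted p = 0.755, 0.178 and 0.217). The calls of Asprv1, Blmh and Ctsd each ended with at least 1 library left out. Tmprss2, another membrane-bound serine protease, rose, at 23.2 and 21 CPM in 2KO-labelled libraries and 11.8 and 9.98 CPM in control (log2 fold change 1.02, edgeR adjusted p = 0.0362); this call ended without 2KO-labelled replicate 1, 2KO-labelled replicate 2 or control replicate 2.

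Membrane proteases and lysosomal enzymes tied to the members by their function were chosen after their values were seen. St14 (matriptase), which can activate kallikreins, was at 105 and 95.7 CPM in 2KO-labelled libraries and 79.0 and 46.1 CPM in control (edgeR adjusted p = 0.0862). Prss8 (prostasin), its partner protease, was at 8.45 and 10.8 CPM in 2KO-labelled libraries and 13.2 and 11 CPM in control (edgeR adjusted p = 0.583). Ctsl, a target of Cst6, was at 142 and 143 CPM in 2KO-labelled libraries and 137 and 139 CPM in control (edgeR adjusted p = 0.882). None of the 3 passed the test.

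Inhibitors outside the members, from lists also chosen with earlier results known, were serpins for the larger part. The serpins were listed by family, so the counts below are of listed genes and not of shown inhibitors. Of 34 tested, 6 fell, 1 rose and 27 did not pass (17.6% lower and 2.94% higher, beside 4.92% and 7.0% of all genes tested), with a median log2 fold change of -0.38. Serpins were 22 of the 34 tested and 4 of the 6 that fell. Serpinb3a was at 2.72 and 0.742 CPM in 2KO-labelled libraries and 21.1 and 12.9 CPM in control (log2 fold change -3.30, edgeR adjusted p = 0.00468). Serpinb1a, whose product inhibits neutrophil elastase, was at 0.397 and 0.445 CPM in 2KO-labelled libraries and 5.78 and 6.40 CPM in control (log2 fold change -3.83, edgeR adjusted p = 0.00704). It reached the filter on low counts through its control libraries alone, so a difference was a condition of its being tested. Serpinb2, an inhibitor of urokinase, and Serpinb6a fell by 1.62 and 0.79 on the log2 scale; both calls ended with at least 1 library left out and on FPKM values, and Serpinb2 shares 291 exon bases with Serpinb10. Csta1, a stefin that inhibits cysteine cathepsins as Cst6 does, was at 2.27 and 1.39 CPM in 2KO-labelled libraries and 8.58 and 5.99 CPM in control (log2 fold change -2.0, edgeR adjusted p = 0.0473), a call that also ended without control replicate 1 or 2KO-labelled replicate 2.

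Serpine2 (protease nexin 1), a secreted inhibitor of thrombin and plasminogen activators, went the other way, at 71.1 and 75.2 CPM in 2KO-labelled libraries and 20.2 and 25.5 CPM in control (log2 fold change 1.68, edgeR adjusted p = 0.000584). The 4 most abundant inhibitors per length did not pass. Cst3 (cystatin C) was at 332 and 349.8 FPKM in the 2KO-labelled libraries and 306 and 378 FPKM in control (edgeR adjusted p = 0.859). Cstb (stefin B) was at 183 and 131 FPKM in the 2KO-labelled libraries and 199.6 and 169 FPKM in control (edgeR adjusted p = 0.497). Wfdc2 was at 146 and 126 FPKM in the 2KO-labelled libraries and 122 and 112 FPKM in control (edgeR adjusted p = 0.702). Spint2, a Kunitz inhibitor of membrane serine proteases, was at 122 and 116 FPKM in the 2KO-labelled libraries and 80.8 and 88.7 FPKM in control (edgeR adjusted p = 0.0658), and was called higher with DESeq2 and with upper-quartile scaling. Of 31 genes in the Kazal, Kunitz and whey acidic protein list outside the members, 6 passed the filter on low counts and 8 had no count in any library.

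**Figure D5:**
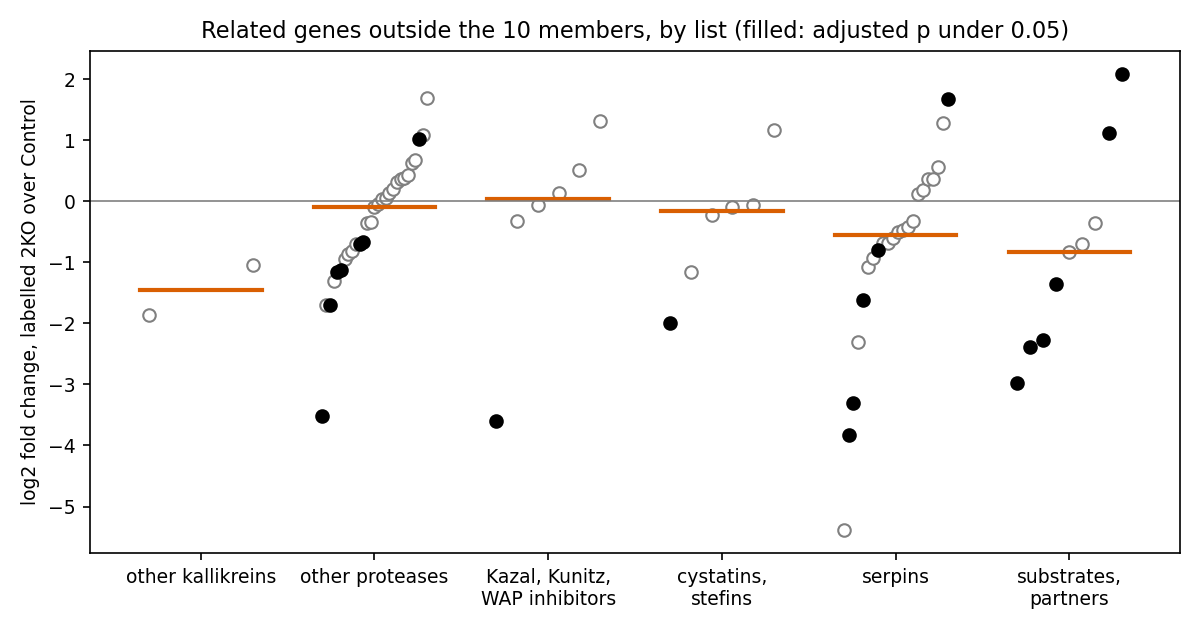
Log2 fold change, libraries labelled 2KO over control, of the tested genes outside the 10 members, by list; filled points passed the threshold of 0.05 and orange lines are list medians. Serpins and substrates have medians of -0.55 and -0.82, while the Kazal, Kunitz and whey acidic protein list is centred near 0 at 0.034.

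A list of substrates and partners of the kallikreins, with genes of the cornified envelope among them, moved in both directions. Of 9 tested, 4 fell, 2 rose and 3 did not pass (44.4% lower and 22.2% higher, beside 4.92% and 7.0% of all genes tested). This list too was chosen with earlier results known. The desmosomal cadherins Dsg1a and Dsg1b, which kallikreins cut in skin, fell. Dsg1a was at 43.9 and 18.3 CPM in 2KO-labelled libraries and 285 and 200.5 CPM in control (log2 fold change -2.97, edgeR adjusted p = 0.000441). Dsg1b was at 56.8 and 32.2 CPM in 2KO-labelled libraries and 260 and 203 CPM in control (log2 fold change -2.38, edgeR adjusted p = 0.000276). The paralogs are close enough in sequence that reads may have been split between them. Tgm3 and Tgm1, transglutaminases of the cornified envelope, fell by 2.27 and 1.35 on the log2 scale. With these and Lor, described below, in the list, its shares are not those of kallikrein substrates alone. Dsc1 and Dsg1c, also in the list, were not called (log2 fold change -0.70 and -0.35, edgeR adjusted p = 0.639 and 0.887).

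F2rl1 rose. It encodes protease-activated receptor 2, which trypsin-like proteases switch on by cutting its outer end. It was at 233 and 207 CPM in 2KO-labelled libraries and 124 and 79.1 CPM in control (log2 fold change 1.12, edgeR adjusted p = 0.00679). Lor, the envelope protein loricrin, rose as well, at 11.5 and 16.9 CPM in 2KO-labelled libraries and 4.26 and 2.35 CPM in control (log2 fold change 2.09, edgeR adjusted p = 0.0129), a call that ended without 2KO-labelled replicate 2. Cdsn, which encodes corneodesmosin, had 0 and 20 counts in the 2KO-labelled libraries and 36 and 0 in control, so no direction can be given for this Klk7 substrate.

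The members called lower moved in the same direction as most markers listed for the upper epithelial layers. Of 9 suprabasal markers tested 7 fell and 0 rose, and the list shares Dsg1a, Tgm3 and Ivl with the substrates. Lor, an envelope gene that was called higher, was not placed in the suprabasal list. Krt1 and Krt10 were not called (edgeR adjusted p = 0.780 and 0.0582), and Krt1 overlapped between groups. Of all genes tested 4.92% were called lower and 7.0% higher, and the marker lists were chosen with earlier results known. The suprabasal list summed to 1153 and 549 CPM in 2KO-labelled libraries and 3420 and 2474 CPM in control. Basal markers summed to 10625 and 11513 CPM in 2KO-labelled libraries and 15303 and 12538 CPM in control, with 2 of 7 lower. One of the 2 was Krt14, whose promoter drives the Cre, at 718 and 828 CPM in 2KO-labelled libraries and 1518 and 1037 CPM in control (edgeR adjusted p = 0.0248). The other was Krt5, which together with Krt15 made up most of the basal sum. Trp63, Col17a1 and Itga6 overlapped between groups (log2 fold change 0.001, 0.10 and 0.34). Itgb4 lay below control (log2 fold change -0.34), and none of these passed the test. The basal sum is thus mostly one of keratins. Periderm markers, of the embryonic surface layer, summed to 3008 and 2658 CPM in 2KO-labelled libraries and 7002 and 6013 CPM in control, with 5 of 8 lower and 1 higher. Most of that sum was Krt6a, at 1743 and 1492 CPM, against 5175 and 4099 CPM in control. The gene called higher was Krt18 (log2 fold change 0.82, edgeR adjusted p = 0.00954). Krt8 and Krt19 were not called (log2 fold change -0.005 and -0.24, edgeR adjusted p = 0.993 and 0.572). The sum thus does not stand for the whole list. The part of layer composition or of the Rn45s share in the members' values was not tested. In CPM, the library with more suprabasal marker RNA also had more Spink5, Wfdc5 and Endou within either group. For Klk7, Klk8, Klk10, Klk11 and Klk14 this held in control alone, for Cst6 in the 2KO-labelled group alone, and for Klk13 in neither; in FPKM Klk10 and Klk11 followed it in either group and Klk13 in control.

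Markers of other cell types were present at lower sums than the suprabasal markers, least far below in 2KO-labelled replicate 2. Endothelial markers summed to 40.2 and 61.6 CPM in 2KO-labelled libraries and 29.4 and 23.2 CPM in control, with 0 of 8 called. Immune markers summed to 55.6 and 47.7 CPM in 2KO-labelled libraries and 26.1 and 22.0 CPM in control, with 1 of 5 higher. That gene was Cd68, most of the sum, at 47.2 and 39.0 CPM, against 21.3 and 11.9 CPM in control. Without a call, Csf1r lay above control and Lyz2 below it (log2 fold change 0.87 and -3.98). The pan-leukocyte gene Ptprc had 3 and 3 counts, against 1 and 10. Mesenchymal markers summed to 383 and 349 CPM, against 311 and 377 CPM in control, with 1 of 8 lower. Melanocyte and glial markers summed to 16.4 and 19.0 CPM, against 17.2 and 13.3 CPM in control, with Tyr at 0 counts. Salivary markers summed to 31.7 and 50.3 CPM, against 76.8 and 81.0 CPM in control, with 1 of 3 tested lower; most of that was Muc19, and Bpifa2 and Dcpp2 were at 0 counts. The part of these cells in the members' values was not tested.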

How the data were processed

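Gene-level read counts and FPKM values of 4 libraries were used. The authors deposited 1 file of raw counts per library and 1 table of FPKM values, whose file name gives cuffnorm as its source. The submitters' processing notes name mm10, HTSeq 0.6.1, TopHat2 2.0.13, DESeq2 1.6.3 and Cufflinks 2.2.1. The annotation used, and whether counting was stranded, is not given in the sources used here. Per the labels' protocols, 15 ng of RNA was amplified before sequencing as 100-nucleotide single reads, so reads are not independent molecules and limits from counts hold for counting error alone.

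The deposited counts were fitted with edgeR 4.0.16 in R 4.3.3 (TMM scaling, filterByExpr with the group, two-sided quasi-likelihood test of genotype over all 4 libraries, Benjamini-Hochberg adjustment over 15336 tested of 24453 genes, threshold 0.05). CPM values use TMM-scaled library sizes. Levels of single genes were compared with each other in FPKM. The ratio was also taken from CPM sums, and marker lists were compared by CPM sums, which are not scaled to transcript length. Coordinates are from GENCODE M21 (mm10). The fit was tested on simulated counts. Alternatives were RLE and upper-quartile scaling, DESeq2 1.42.0, limma-voom (limma 3.58.1), a filter of 1 CPM in 2 libraries or none, replicate number as block, a fit without Rn45s, Malat1 and Lars2, limma-trend on log2(FPKM + 1) and log2(FPKM + 0.1) with a filter of 0.5 FPKM in 2 libraries, and on log2(FPKM + 1) without it, and each library left out.

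The members and all gene lists were chosen with earlier results of these data known. The rule for named genes takes the members, the targeted genes, Epcam, Rn45s and the leading markers. It also takes the called genes of each related list by smallest p (at most 6) and its 2 most abundant genes. Other names were chosen after their values were seen. No library was treated as a copy of another: between replicates, chi-square over its degrees of freedom was 23.4 (2KO-labelled) and 29.2 (control), above counting noise. No value column was left unused.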

Additional observations from a re-analysis of the deposited data

How the results depend on the processing

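Of 148 pairs of a member and an alternative setting, 130 kept the direction where one was called and their side of the threshold, 18 lost the call and 0 reversed. Members called lower were 8 of 10, 6 to 8 under every setting but unfiltered log2(FPKM + 1), and 7 to 8 with a library left out; members called higher stayed at 0. With limma-trend on unfiltered log2(FPKM + 1) 0 genes of any kind were called, of members, other proteases, other inhibitors, substrates and all genes alike, while 1428 were lower and 2336 higher at an unadjusted p under 0.05. On filtered log2(FPKM + 1) and log2(FPKM + 0.1), 231 and 175 genes in all were lower and 588 and 472 higher, against 754 and 1073 on counts. Other proteases lower numbered 1 and 1 there and higher 0 and 0, and other inhibitors lower 2 and 3 and higher 2 and 2. Substrates higher numbered 1 on log2(FPKM + 0.1). With no filter on low counts 1242 genes were lower, 3 other proteases were higher, and 11 other inhibitors were lower and 2 higher. With DESeq2 3 other proteases and 3 other inhibitors were higher, with limma-voom 2 other proteases, and with upper-quartile scaling 2 other inhibitors. Leaving out a library gave 537 to 1104 genes lower and 839 to 1643 higher, 3 to 8 other proteases lower and 0 to 5 higher, 4 to 7 other inhibitors lower and 1 to 2 higher, and 4 substrates lower and 1 to 2 higher. The highest of the counts over all genes came without control replicate 1.

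The median log2 fold change of the 6 kallikreins was -1.93 and -2.05 on filtered log2(FPKM + 1) and log2(FPKM + 0.1), where Klk7 was filtered out, and -2.20 to -1.44 with a library left out. That of the 3 inhibitors was -1.61 on log2(FPKM + 1) with and without the filter, -3.03 on log2(FPKM + 0.1), and -3.87 to -2.60 with a library left out. On log2(FPKM + 1), with (-1.93) and without (-1.73) the filter for the kallikreins, the order of the classes thus reversed. The larger pseudocount shrinks genes of low FPKM by its construction. The mean ratio of the 6 kallikreins to the 3 inhibitors in FPKM was 13.9 in the 2KO-labelled libraries and 4.67 in control. It was 201 and 45.5 without Spink5, where few reads stand behind the 2KO-labelled sums, and 3.26 and 0.933 from CPM sums.

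Same-numbered libraries did not deviate together (correlation 0.0119 across genes). A single correlation over 4 libraries cannot exclude that the numbers pair them. With the replicate number as a block 880 genes in all were lower and 1156 higher, against 754 and 1073 without it. In that fit 7 members were lower, the Cst6 call ending (edgeR adjusted p = 0.0531), and 2 other proteases were higher. Depth limits Klk7, Klk14, Wfdc5, Cst6 and Endou most, each with a library under 30 counts; the cause of changes between settings was not tested.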
